A study of Arabidopsis thaliana with 12 samples.

Results

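Transcripts of 4 Arabidopsis thaliana genes with roles in chromatin and cell division were measured on 12 single-colour arrays of total RNA. The genes were chr31, a chromatin remodelling gene, AT1G13370, a histone H3 gene, AT2G38950, a gene of the jumonji family, and AT3G44050, a kinesin gene. They are 4 of 691 genes that the array's annotation names through a feature listing a single gene, among 3439 features in all. Each had 1 such feature, and none of the 4 occurred in a feature that lists several genes. The annotation has no entry for 1877 of the features, so the genes they measure are not known here. The 4 genes were chosen by their difference between the groups on these same arrays, including how many arrays listed them at 0, so that difference is described below and not tested.

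The groups compared were 6 arrays of the laf6 mutant, which lacks the protein atABC1, and 6 arrays of WT plants. Plants of both groups were of the Landsberg ecotype and were adapted to the dark. The labels give neither the tissue nor the age of the plants, nor whether arrays came from separate plants, so the spread given below may be technical.

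Chromatin remodellers of the SNF2 type use ATP to move or open nucleosomes, the units in which DNA is wound around histones. chr31, also known as CLSY3, belongs to the CLASSY group, which acts with RNA polymerase IV in DNA methylation directed by small RNAs. Histone H3 is a core histone, and its H3.1 form is laid down as DNA is copied. Which H3 form AT1G13370 encodes was not examined here. Many proteins with a jumonji domain remove methyl groups from histones, and kinesins are motor proteins that move along microtubules, several of them in the spindle and the phragmoplast of dividing plant cells.

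The authors deposited linear intensities without an absolute unit, which ran from 0 to 100 on every array. Array medians lay between 0.178 and 0.202 in laf6 and between 0.218 and 0.289 in WT. Between 491 and 674 features of an array were listed at 0 in laf6, against 447 to 540 in WT. Arrays were quantile normalized, and values deposited as 0 were then set back to 0. The resulting values are called normalized intensities. Genes taken as markers of photosynthetic tissue (LHB1B2, PSAN and PRK) had a signal on all 12 arrays, and all 3 were higher in laf6. Their log2 differences were 1.23 ± 0.15, 1.72 ± 0.10 and 1.17 ± 0.24 (SE, n = 6 each, limma adjusted p = 8.06e-05, 2.88e-07 and 0.00391). As deposited, PRK ran from 0.760 to 1.92 in laf6 and from 0.499 to 0.896 in WT, so its groups overlapped on that scale. RBCS1A, the other marker, was not named by a single-gene feature, nor was any of the 90 genes of the cell cycle, DNA replication and microtubule list. Whether the share of photosynthetic or of dividing tissue differed between the groups was not tested. In RNA of whole samples, a change in the number of cells of a type and a change in RNA per cell cannot be told apart.

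All 4 genes were lower in laf6 than in WT, in different ways. chr31 and AT2G38950 were listed at 0 on every laf6 array, while AT1G13370 and AT3G44050 kept a signal on all 12 arrays. The choice of the genes fixed that direction. A value of 0 on all 6 laf6 arrays was found for 4.6% of all features, a value of 0 on all 6 WT arrays for 4.28%, and a signal on all 12 arrays for 63.7%.

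**Figure D1:**
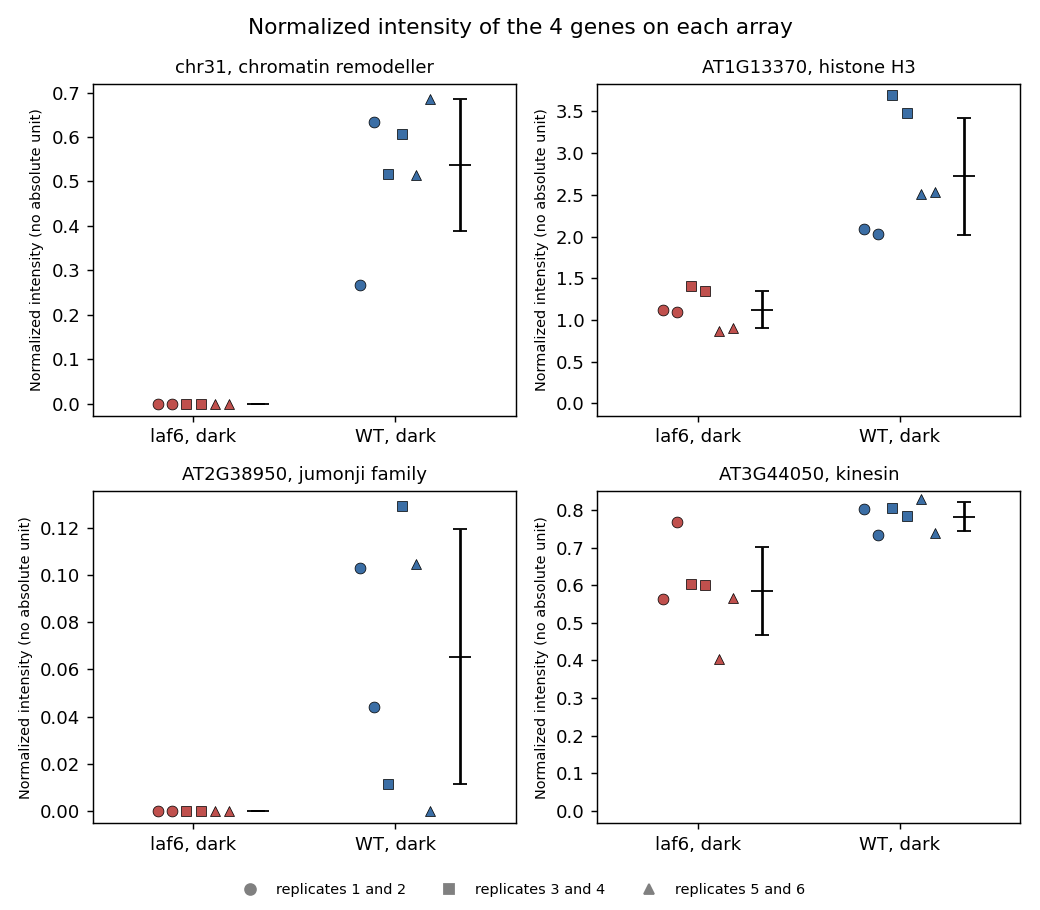
Normalized intensity of the 4 genes, laf6 arrays on the left of each panel and WT arrays on the right, with 1 point per array, a marker shape for each pair of adjacent replicate numbers, and a bar for the mean ± SD (n = 6 each). All laf6 points of chr31 and AT2G38950 lie at 0, those of AT1G13370 lie below all WT points, and those of AT3G44050 reach into the WT range with 1 array. Each panel has its own vertical scale.

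chr31 was listed at 0 on 6 of 6 laf6 arrays. On the WT arrays its deposited intensity had a lowest value of 0.299, a median of 0.672 and a highest value of 0.800. No WT array was at 0, so the groups did not overlap. The normalized intensity in WT was 0.537 ± 0.149 (SD, n = 6), and no fold is given against a group listed at 0. The laf6 arrays listed other features with positive values down to between 3.61e-05 and 0.000202, depending on the array. How a listed 0 arose was not given, so it cannot be read as a signal below those values. The WT array of replicate 1 held the lowest chr31 value, 0.299, and the array of replicate 2, next to it in number, held 0.750. chr31 arrays with adjacent replicate numbers in WT were thus no closer than others. Their mean absolute difference was 0.63 on the log2 normalized scale, against 0.50 for the other WT array pairs (3 and 12 pairs).

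AT2G38950, the jumonji family gene, was also listed at 0 on 6 of 6 laf6 arrays. Its deposited intensity over the WT arrays had a lowest value of 0, a median of 0.0812 and a highest value of 0.177. The groups therefore met at 0, through the WT array of replicate 6. The other 5 WT arrays had a signal, the weakest of them 0.0180 on replicate 3. In WT the normalized intensity was 0.0654 ± 0.0541 (SD, n = 6), an SD of 82.7% of the mean, against 27.6% for chr31. The WT arrays of AT2G38950 did not fall together by number either: replicates 3 and 4 had 0.0180 and 0.177, and replicates 5 and 6 had 0.112 and 0. A difference between the groups in this gene rests on weak and variable WT signals. On the 5 WT arrays with a signal the normalized intensity ran from 0.0116 to 0.129. Of these, only replicate 3 lay close to the floor of 0.00597 that was set before taking log2.

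The pattern of chr31, a signal on all 6 WT arrays and 0 on all 6 laf6 arrays, was shared by 10 of 3438 features (0.291%). With AT2G38950's single WT array at 0 allowed, 16 features (0.465%) had a signal on at least 5 WT arrays and none in laf6. The reverse pattern, 0 on all 6 WT arrays and a signal on at least 5 laf6 arrays, was held by 2 features (0.0582%). Of 691 named genes, 4 had a signal on at least 5 WT arrays and none in laf6 (0.579%), and 2 of those 4 are chr31 and AT2G38950. These shares describe the pattern by which both genes were picked and give it no support. More features at 0 in laf6 than in WT is also what the counts per array above show, and the part of that in these patterns was not tested.

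**Figure D2:**
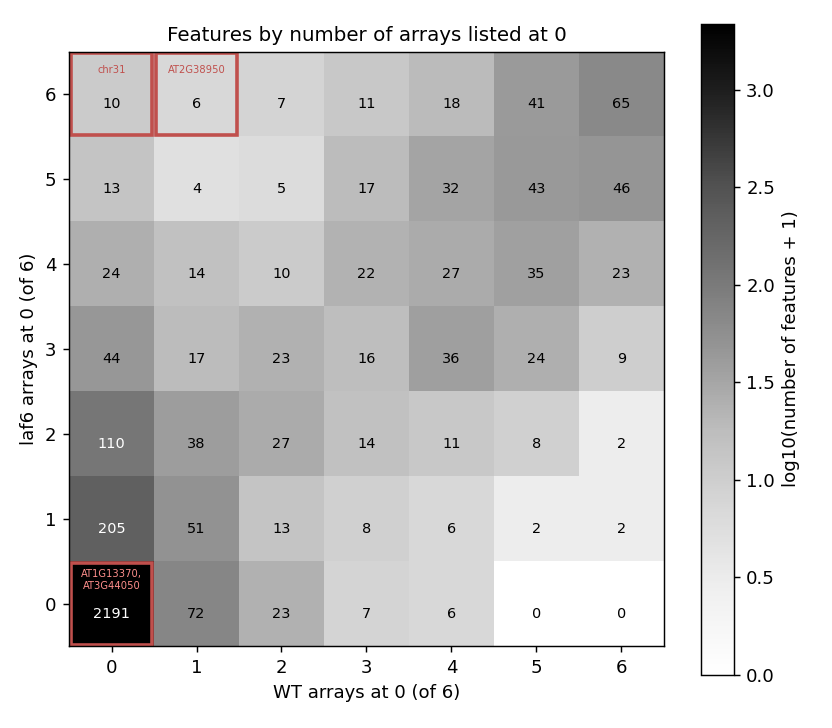
Number of features for each combination of laf6 arrays listed at 0 (vertical axis, 0 to 6) and WT arrays listed at 0 (horizontal axis, 0 to 6), shaded by log10 of the number plus 1. chr31 shares its cell with 9 other features, which makes 10, AT2G38950 lies in a cell of 6, and AT1G13370 and AT3G44050 lie among the 2191 features with a signal on all arrays.

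AT1G13370, the histone H3 gene, had deposited intensities with a lowest value of 0.713, a median of 0.896 and a highest value of 1.24 on the laf6 arrays. On the WT arrays the lowest was 2.36, the median 2.44 and the highest 4.40. Every laf6 array lay below every WT array. The normalized intensity was 1.12 ± 0.223 in laf6 and 2.72 ± 0.706 in WT (SD, n = 6 each), a log2 difference of -1.26 ± 0.19 (SE). Over all features, 8.38% had a lower log2 difference than AT1G13370. Histone H3 genes of Arabidopsis are close copies of each other in sequence, and the feature's own sequence was not used here, so signal from other H3 transcripts in this feature cannot be told apart from that of AT1G13370.

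Arrays of adjacent replicate number lay close to each other for AT1G13370 in both groups. Replicates 1 and 2 had deposited intensities of 0.915 and 0.877 in laf6 and of 2.45 and 2.39 in WT. Replicates 3 and 4 were the highest in both groups, at 1.24 and 1.22 in laf6 and at 4.40 and 4.21 in WT. Replicates 5 and 6 had 0.713 and 0.763 in laf6 and 2.43 and 2.36 in WT. As deposited, WT replicates 1, 2, 5 and 6 were thus alike, and only replicates 3 and 4 stood apart. Arrays of adjacent number differed by 0.06 in laf6 and 0.05 in WT on the log2 normalized scale (means of 3 pairs), against 0.43 and 0.54 for the other pairs of arrays within a group (12 pairs each). For the median feature with a signal on all arrays the same differences were 0.40 and 0.51 in laf6 and 0.25 and 0.34 in WT. Among those 2191 features, 9 (0.411%), AT1G13370 included, had adjacent arrays at least as close as AT1G13370 in both groups. The labels do not say whether arrays of adjacent number came from the same RNA. If they did, each group holds 3 samples and the SE above is too small. The same would then hold for the SEs and limma p-values of all other genes given here.

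Taken by those pairs, the mean deposited intensity of AT1G13370 in laf6 was 37.1% of that in WT for replicates 1 and 2, 28.6% for replicates 3 and 4 and 30.8% for replicates 5 and 6. The log2 differences of the normalized values were -0.90, -1.38 and -1.51 in the same order. The gene was lower in laf6 in each of the 3. In WT the arrays numbered 3 and 4 also had the highest array medians (0.280 and 0.289, against 0.218 to 0.247 on the other WT arrays). The part of these medians in the AT1G13370 values was not tested. After quantile normalization AT1G13370 stood at 3.59 in the WT arrays numbered 3 and 4, against 2.06 for numbers 1 and 2 and 2.52 for numbers 5 and 6.

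**Figure D3:**
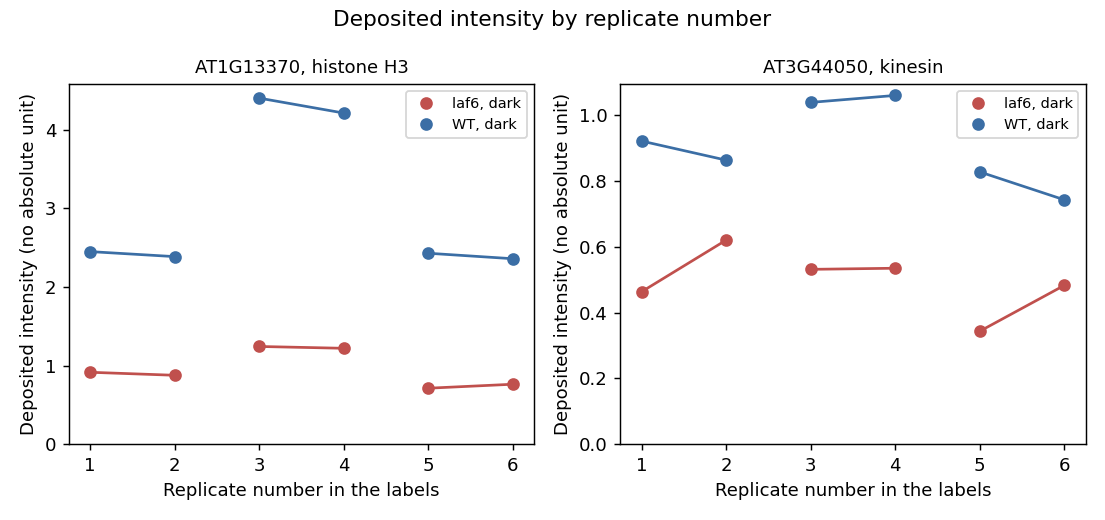
Deposited intensity of AT1G13370 (left) and AT3G44050 (right) against the replicate number in the labels, laf6 in red and WT in blue, with a line joining adjacent numbers and both vertical axes starting at 0. For AT1G13370 the joined points nearly coincide, with numbers 3 and 4 highest in both groups, and for AT3G44050 the laf6 points of numbers 1 and 2 and of 5 and 6 differ.

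AT3G44050, the kinesin gene, had the smaller of the 2 measurable differences. Its deposited intensity on the laf6 arrays had a lowest value of 0.343, a median of 0.507 and a highest value of 0.620. On the WT arrays the lowest was 0.742, the median 0.892 and the highest 1.06. The deposited values of the groups did not overlap. After normalization they did, since the laf6 array of replicate 2 (0.768) passed the WT arrays of replicates 2 (0.734) and 6 (0.740). The normalized intensity was 0.584 ± 0.117 in laf6 and 0.783 ± 0.0383 in WT (SD, n = 6 each), a log2 difference of -0.45 ± 0.13 (SE). Of all features, 30.0% had a lower log2 difference. The laf6 arrays of this gene were more spread than the WT arrays, with an SD of 20.0% of the mean in laf6 and 4.90% in WT.

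By pairs of adjacent numbers, the mean deposited intensity of AT3G44050 in laf6 was 60.7% of that in WT for replicates 1 and 2, 50.8% for replicates 3 and 4 and 52.6% for replicates 5 and 6. The log2 differences of the normalized values were -0.22, -0.40 and -0.71. Unlike for AT1G13370, laf6 arrays of adjacent number differed by 0.32 on the log2 normalized scale, close to the 0.34 of the other laf6 pairs. In WT these differences were 0.11 and 0.08 on that scale, but 0.09 and 0.28 on the log2 scale of the deposited values. No test was made of that contrast between the genes.

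Counting the 4 genes together, 2 of them (chr31 and AT1G13370) had every laf6 array below every WT array in normalized intensity, a state that 9.37% of all features shared. In deposited intensity it was 3 of them, with AT3G44050, against 17.1% of all features. Every laf6 array lay above every WT array for 8.52% of features in normalized and 4.97% in deposited intensity. These counts were part of how the genes were picked, and nothing is read from them.

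The size of both measurable differences depended on how the arrays were brought to a common scale. In the values as deposited the median log2 difference of all features was -0.45, against -0.02 after quantile normalization. AT3G44050 stood at -0.89 as deposited and AT1G13370 at -1.65. Relative to the median of all features, AT3G44050 stood at -0.43 as deposited and at -0.42 after quantile normalization. AT1G13370 stood at -1.19 and -1.24 on that footing. With median scaling, 75th percentile scaling and cyclic loess the differences relative to that median ran from -0.38 to -0.31 for AT3G44050, and all 3 came to -1.14 for AT1G13370. As deposited, AT3G44050 therefore lay about as far below the median of all features as that median lay below 0.

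**Figure D4:**
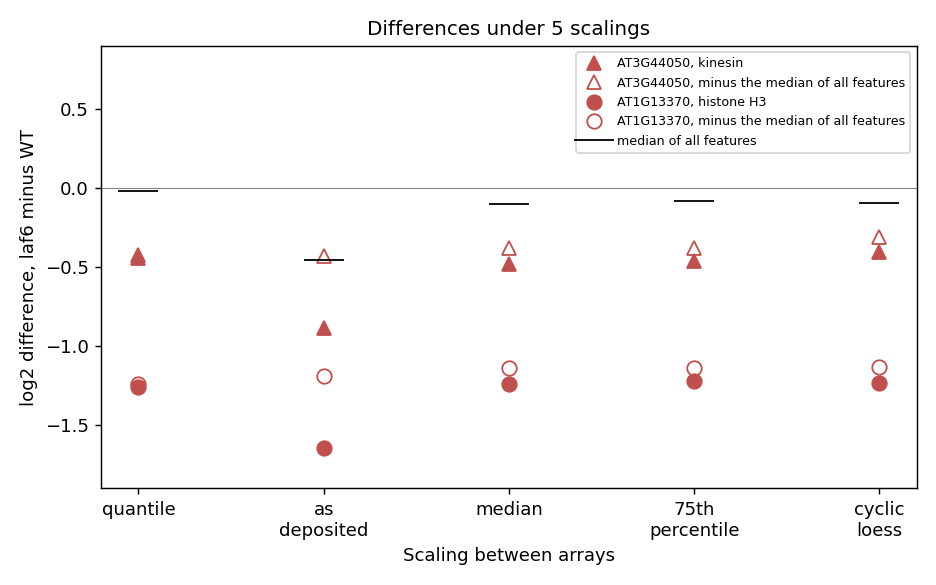
Log2 difference between laf6 and WT (vertical axis) of AT1G13370 (circles) and AT3G44050 (triangles) under 5 scalings between arrays, with filled symbols for the difference itself, open symbols for the difference minus the median of all features, and a dash for that median. The filled symbols are lowest in the values as deposited (-1.65 and -0.89), where the dash stands at -0.45, while the open ones vary less.

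Other genes of the same functions were taken from a list of 243 histone, chromatin remodelling, jumonji and histone mark, kinesin and cell division genes. Only 6 of them had a single-gene feature, 2 of 42 histone genes and 4 of 44 kinesin genes. None of the 29 remodelling genes or of the 38 jumonji and histone mark genes had one. The list thus held no relative of chr31 or AT2G38950 with a single-gene feature to set beside them. Of the 243 genes, 19 occur in features that list several genes, which are not named. Others may be measured by the 1877 features without an entry in the annotation, so these counts do not show what the array lacks. AT4G14330, a kinesin gene, was listed at 0 on all 12 arrays, as 1.89% of all features were, and could not be called. Of the other 5, none was higher and none lower past the threshold (limma, Benjamini-Hochberg adjusted p under 0.05 over all 3438 features), while 12.4% of all features were higher and 13.8% lower. With replicate numbers as a block, or without laf6 replicate 3, 1 of them was higher. In the values as deposited 1 was lower. At an unadjusted p under 0.05 there were 2 of these 5, against 35.3% of all features. The median log2 difference of the 5 was -0.08, against -0.02 for all features.

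The 2 measured H3.1 genes, which encode the H3 form laid down as DNA is copied, are set beside AT1G13370 without a test of the contrast, and neither passed the threshold. AT1G09200 had a normalized intensity of 0.260 ± 0.0865 in laf6 and 0.289 ± 0.0522 in WT, a log2 difference of -0.19 ± 0.21 (SE, limma adjusted p = 0.540). AT5G65360 had 0.515 ± 0.146 in laf6 and 0.399 ± 0.0826 in WT, a log2 difference of 0.34 ± 0.21 (limma adjusted p = 0.291), which turned to -0.08 in the values as deposited. Their laf6 and WT arrays overlapped in both cases. The deposited values of AT1G09200 ran from 0.161 to 0.339 in laf6 and from 0.249 to 0.477 in WT. Those of AT5G65360 ran from 0.238 to 0.647 in laf6 and from 0.326 to 0.617 in WT.

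Of the kinesin genes on the list, AT2G37420 had the highest log2 difference. It had a normalized intensity of 0.304 ± 0.0901 in laf6 and 0.184 ± 0.0549 in WT, a log2 difference of 0.74 ± 0.28 (SE, limma adjusted p = 0.0765). That value went past the threshold with replicate numbers as a block (adjusted p = 0.00680) and without laf6 replicate 3 (0.0249), and ran up to 0.391 over the alternatives. AT3G20150 had 0.774 ± 0.0870 in laf6 and 0.882 ± 0.0538 in WT, a log2 difference of -0.19 ± 0.09 (limma adjusted p = 0.137). In the values as deposited AT3G20150 stood at -0.64 and passed the threshold (limma adjusted p = 0.00398, range over the alternatives 0.00398 to 0.388), with every laf6 array (0.556 to 0.782) below every WT array (0.799 to 1.23). Relative to the median of all features it stood at -0.19 as deposited and at -0.17 after quantile normalization. AT3G20150 and AT3G44050 thus both had non-overlapping deposited values that overlapped after normalization. Over all features, every laf6 array lay below every WT array for 17.1% in deposited intensity and for 9.37% in normalized intensity. A loss of that separation was therefore not particular to these kinesin genes, and no likeness between them is read from it.

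The remaining kinesin gene with a signal, AT1G21730, had 0.116 ± 0.0481 in laf6 and 0.128 ± 0.0775 in WT, a log2 difference of -0.08 ± 0.54 (SE, limma adjusted p = 0.958). Its sign turned when laf6 replicate 4, the lowest array, was left out (0.30, adjusted p = 0.668). For AT4G14330 no statement on a level in either group can be made.

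**Figure D5:**
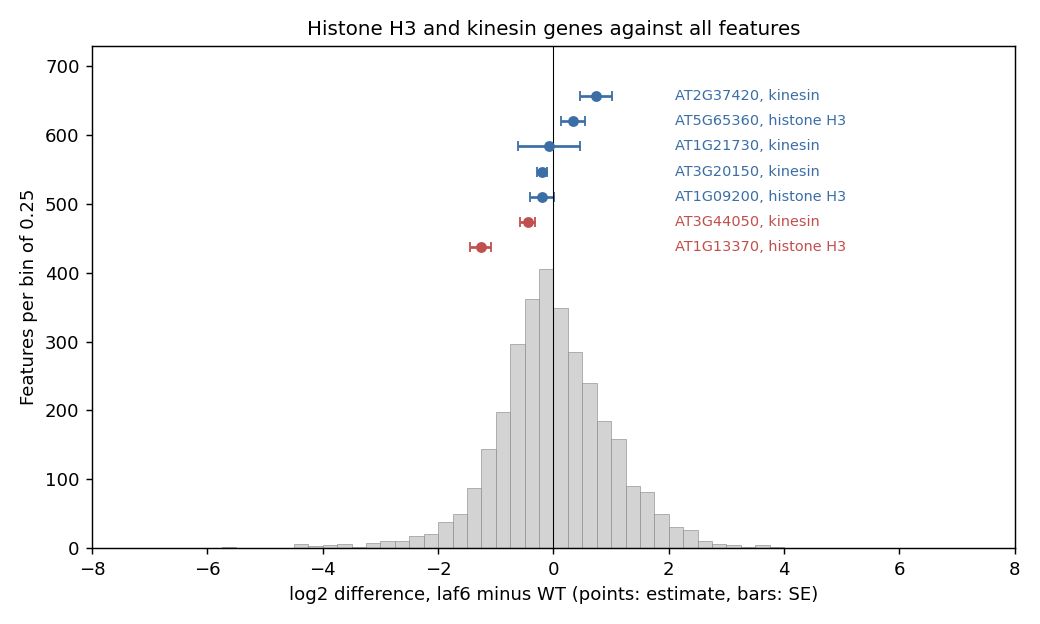
Histogram of the log2 difference between laf6 and WT over the 3198 features with a signal on at least 1 array of each group (grey bars, 0.25 wide), with points and SE bars above it for AT1G13370 and AT3G44050 (red) and for the 5 other histone H3 and kinesin genes with a signal (blue). AT1G13370 lies at -1.26 and AT3G44050 at -0.45, the 5 others lie between -0.19 and 0.74, and the height of a point above the bars has no meaning.

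The named genes whose pattern over the 12 arrays was most like that of each of the 4 were found by the mean absolute difference of log2 normalized values, each gene centred on its own mean. The search covered the 623 other named genes with a signal on at least 4 arrays. For AT1G13370 the nearest were AT2G46220 (0.11), AT3G09250 (0.17) and AT5G40030 (0.18), against a median distance of 0.84. AT2G46220 had a normalized intensity of 4.20 ± 0.954 in laf6 and 10.6 ± 2.58 in WT (SD, n = 6 each). Its log2 difference was -1.33. The group difference is part of the distance, so genes found in this way have a difference like that of the gene they were matched to.

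For AT3G44050 the nearest were AT5G36470 (0.11), AT4G24930 (0.13) and AT1G21500 (0.14), against a median distance of 0.60. The log2 differences of these 3 were -0.42, -0.38 and -0.46. For chr31 the nearest were AT4G03150 (0.83), AT4G38040 (1.13) and AT3G57630 (1.30), against a median of 3.18. AT4G03150 was listed at 0 on 5 of 6 laf6 arrays and on no WT array, AT4G38040 on 6 laf6 arrays and 1 WT array, and AT3G57630 on 4 laf6 arrays and no WT array. For AT2G38950 even the nearest genes were distant, with AT2G36480 at 0.95, AT4G31530 at 1.02 and AT4G19900 at 1.05 against a median of 1.72, and all 3 had a signal on all 12 arrays. Distances for chr31 and AT2G38950 depend on where the floor was set.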

How the data were processed

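The deposited value table holds 1 intensity per feature and array on a linear scale. How the deposited intensities were scanned, background-corrected or scaled was not given in the sources used here. Their highest value was 100 on every array, so the arrays shared a maximum as deposited. The part of that scaling in the differences as deposited was not tested. The table has no detection calls, so the number of arrays limits the precision. Groups and replicate numbers came from the titles. No pair of arrays was identical. Names of genes were taken from the older annotation of the platform and updated through Entrez identifiers with RefSeq (TAIR10.1), in which 690 of 692 single-gene features matched. Coordinates are left out, since the array names no genome build.

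Intensities were quantile normalized, and values deposited as 0 were set back to 0. Values below a floor at percentile 1 of the positive normalized values (0.00597) were raised to it. All were then taken to log2. Features of 1 gene were averaged, which left 3438 rows. Groups were compared with limma 3.58.1 in R 4.3.3, without covariates, and two-sided p-values were adjusted by Benjamini-Hochberg over all rows. The limma fit was tested on simulated log2 values, normally distributed and independent between arrays. That simulation did not model listed zeros, scaling between arrays or likeness of adjacent arrays, so it does not cover them. Figures used Python 3.11.15 and matplotlib 3.10.9.

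The 4 genes and the gene lists were chosen with earlier results of these data known. The named genes were the 4, up to 12 listed genes past the threshold or else the 4 with the smallest p, and the 3 most like each of the 4. AT1G21730 and AT4G14330, outside that rule, were named after their values were seen. Alternatives covered scaling, floor, offset, blocks, array weights, averaged or omitted arrays, dim features and the adjustment.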

Additional observations from a re-analysis of the deposited data

Results flagged for a closer look

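Over the 4 genes and the 6 other histone and kinesin genes, 16 groups of 6 arrays had values that varied, and in 2 of them 1 array lay far from the other 5, where chance gives about 1 in 20. chr31 was low on the WT array of replicate 1, at -1.91 on the log2 normalized scale (deposited intensity 0.299). AT1G21730 was low on the laf6 array of replicate 4, at -5.22 (deposited intensity 0.0135).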

How the results depend on the processing

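Of 26 alternatives, 1 was chosen after seeing the data (arrays of adjacent number as a random block, consensus correlation 0.194). As deposited, 252 features were higher and 902 lower, against 428 and 474 as reported. With adjacent numbers averaged 256 were lower. Adjusted over single-gene features only, 71 were higher and 101 lower. Leaving out single arrays gave 387 to 421 higher and 425 to 476 lower. Of the 6 listed genes, 1 was higher with the replicate block or without laf6 replicate 3, and 1 was lower as deposited. Leaving out single arrays gave 0 to 1 higher and 0 lower. AT1G13370 moved to -1.65 and AT3G44050 to -0.89 as deposited, and without single arrays they ran from -1.34 to -1.17 and from -0.53 to -0.35. The mean log2 level of chr31 in WT was -0.96, -1.51 with cyclic loess and -1.05 to -0.79 without single arrays. That of AT2G38950 was -4.63, but -6.37 with the floor at the lowest positive value and -4.04 with the floor at the 5th percentile of positive values, and -5.04 to -4.13 without single arrays. AT1G21730 turned to 0.07 with array weights (0.0738), to 0.30 without laf6 replicate 4, and to 0.0694 and 0.17 without WT replicates 3 and 4. Without single arrays AT1G21730 ran from -0.323 to 0.303. AT5G65360 turned to -0.0820 as deposited. The causes were not tested. Whether replicate numbers pair arrays is not in the labels, and the comparison was made without them. Same-numbered laf6 and WT arrays correlated at 0.0966 to 0.184 in their deviations, with 5 of 6 over 0.1, against -0.118 to 0.0718 for other numbers. All 6 laf6 arrays matched best with their own number, a hint from the data and not from the design. With the replicate block AT2G37420 stayed at 0.74.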
